A study of Mus musculus with 24 samples.

Results

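Livers of mice gavaged with di(2-ethylhexyl) phthalate (DEHP) were compared with livers of mice gavaged with vehicle, by RNA sequencing, in 12 libraries of the 24 in the series. The DEHP group received 2500 mg of DEHP per kg body weight and is held in 6 libraries, and the vehicle group received 0.5% CMC and is held in 6 libraries. Each library was taken by its title, which names the treatment and a replicate number, and no measured value entered that rule. Earlier results of these data were nevertheless known when the libraries, lists and genes were chosen. All animals were C57BL/6 males of 20 to 30 g, with 12 mice described per group, and neither a genotype change nor any other agent is given for them. The remaining groups, used here only for the shared error estimate and a closing comparison, received DEHP at 2500 mg/kg plus ethanol at 1 g/kg (6 libraries) or ethanol at 1 g/kg alone (6 libraries). CMC is written in the titles of the vehicle libraries and in no others. If the DEHP group did not receive it, DEHP and its carrier cannot be told apart in this contrast. The labels give no duration of dosing, do not say whether livers were pooled and tie no library to an animal, so the p-values rest on the variation among libraries, part of which may be technical.

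DEHP is a plasticiser that the body hydrolyses to its monoester, which in rodent liver activates the nuclear receptor PPARα. PPARα pairs with the retinoid X receptor and switches on genes of fatty acid uptake, activation and oxidation in peroxisomes, mitochondria and the endoplasmic reticulum, and rodents given such compounds over time develop enlarged, peroxisome-rich livers. Phthalates are also known to act on the xenobiotic receptors CAR and PXR, which control drug-metabolising cytochromes P450.

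Total expected counts lay between 7324793 and 7779687 in the 12 libraries, with 14231 to 15114 genes above 0. The liver identity of all 12 libraries was clear from Alb, which encodes albumin and ranged from 17613 to 39584 FPKM (fragments per kilobase of transcript, scaled to library depth). Single libraries held RNA of other tissues. The 16 skeletal muscle markers summed to 4.1 to 6.74 FPKM in DEHP livers, and in vehicle livers to 8353 FPKM in vehicle 1 and at most 9.2 FPKM in the other 5 libraries. The 14 pancreatic acinar markers summed to 709 FPKM in DEHP 6, at most 27.7 FPKM in the other DEHP livers and at most 35.2 FPKM in vehicle livers, where 10 of the markers were at 0 in every library. The adipocyte marker Adipoq had 4.75 FPKM in DEHP 6 and 1.73 FPKM in vehicle 1, against at most 0.13 FPKM in the other libraries compared. Retn, another adipocyte marker, had 2.41 and 2.4 FPKM in the same libraries, against at most 0.29 FPKM. DEHP 1 stood apart in macrophage markers (625 FPKM summed, against 229 to 269.6 FPKM in the other DEHP livers and 162 to 436 FPKM in vehicle livers) and in neutrophil markers (67.8 FPKM, against at most 8.87 FPKM in the other DEHP livers and at most 10.3 FPKM in vehicle livers). A library of the DEHP plus ethanol group, combination 6, held muscle markers too (6134 FPKM summed, against at most 4.42 FPKM in the others of its group). Values without the tissue libraries leave out DEHP 6, vehicle 1 and combination 6 together.

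**Figure D1:**
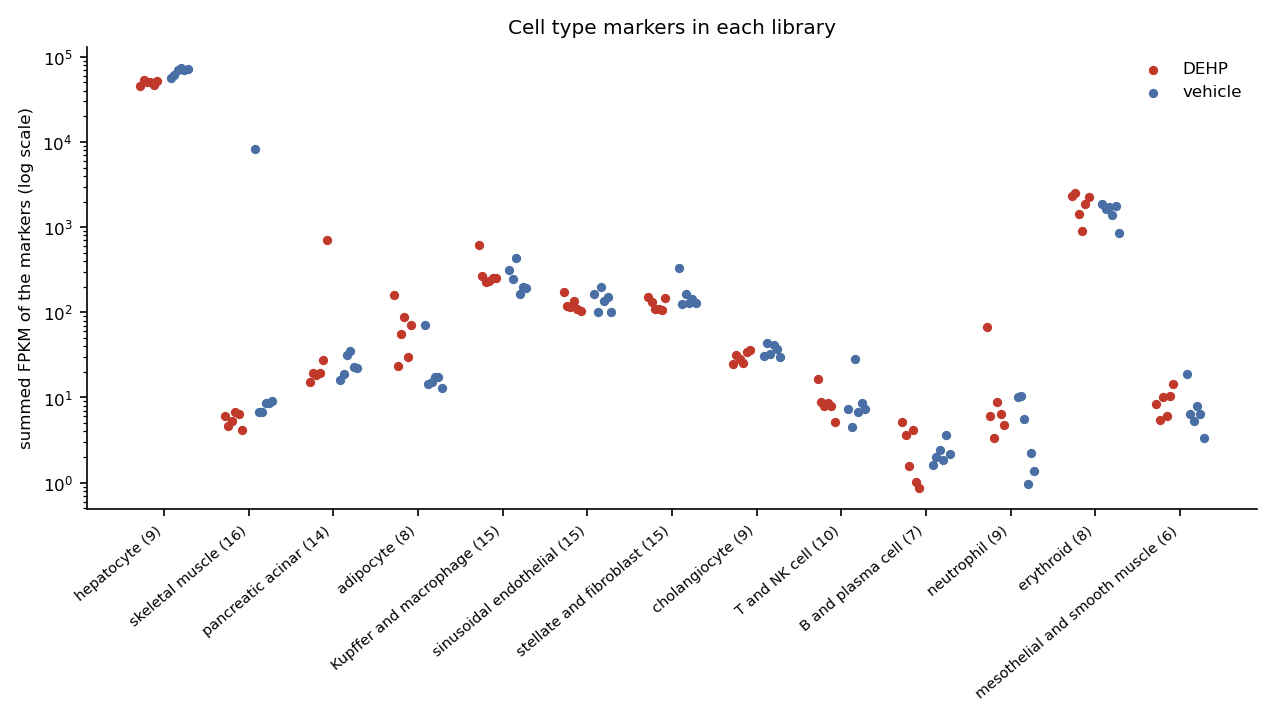
Summed FPKM of the markers of 13 cell types (log scale) in each of 6 DEHP and 6 vehicle libraries, 1 point per library, with the number of markers found in parentheses. The hepatocyte sum is lower in all 6 DEHP libraries than in any vehicle library, and vehicle 1 (muscle) and DEHP 6 (pancreas) stand apart.

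Across the liver transcriptome, 2778 of 10697 genes tested passed at an adjusted p below 0.05 (26.0%; edgeR quasi-likelihood test, Benjamini-Hochberg adjustment over all genes tested), 1537 of them higher after DEHP (14.4%) and 1241 lower (11.6%). At an unadjusted p below 0.05 there were 4069. Most changes were small, with a median absolute log2 change of 0.47 among the genes called, and 204 genes rose and 139 fell at least 2-fold. The median log2 change of all genes tested was -0.02. The counts of gene lists below are to be set against the shares of 14.4% higher and 11.6% lower. FPKM ranges of the groups did not overlap for 1065 genes (9.96%), of which 751 had been called higher and 284 lower. Wherever the values of both groups are given below, they did not overlap unless overlap is stated, and 3 values given for a group are the lowest, the median and the highest of its 6 libraries. Without the 3 tissue libraries, 2100 genes were called, and 1933 of the 2778 kept their call and direction.

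**Figure D2:**
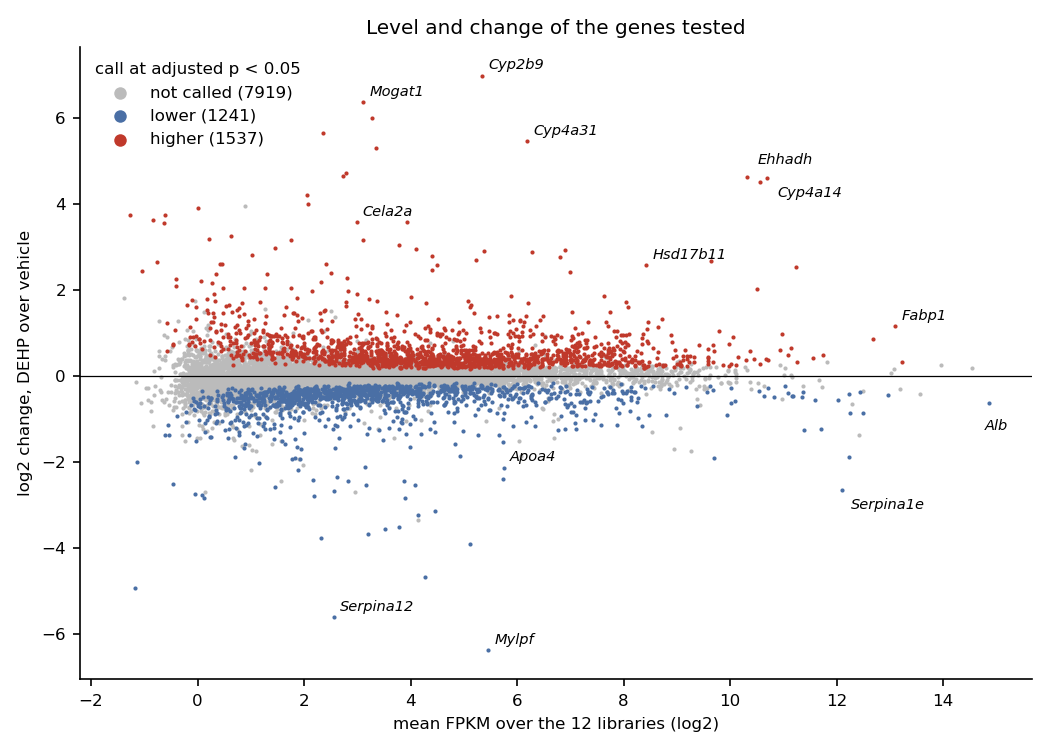
Log2 change (DEHP over vehicle) of the 10697 genes tested against their mean FPKM over the 12 libraries (log2), 1 point per gene. The 1537 genes called higher reach 6.98 (Cyp2b9), the 1241 called lower reach -6.39 (Mylpf, a muscle gene called only with vehicle 1), and Alb is the most abundant gene labelled.

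A few calls of large size rested on the tissue libraries. In all, 16 genes lost their call and moved by at least 1 on the log2 scale without them. Mylpf, a myosin light chain of fast muscle, changed by -6.39 with all libraries and by 0.06 without vehicle 1 (adjusted p = 0.989). Fabp3, the fatty acid binding protein of heart and muscle, changed by -4.69 with all libraries and by 1.32 without vehicle 1, and its call was also lost on leaving out any single DEHP library. Most of the others were further muscle genes that vehicle 1 held at high values. Cela2a, a pancreatic elastase, changed by 3.57 with all libraries and by 0.04 without DEHP 6.

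Genes of fatty acid omega oxidation, the microsomal route that hydroxylates the far end of the chain before it is trimmed in peroxisomes, held several of the largest rises. Of 13 tested, 8 rose and 3 fell. Cyp4a14 (chromosome 4, 115486200 to 115496158, GRCm38.p6, as for all coordinates), a fatty acid omega hydroxylase, had 2129.5, 3248 and 3888 FPKM in DEHP livers, against 26, 119 and 239 FPKM in vehicle livers. Every DEHP liver was above every vehicle liver (log2 change 4.59 ± 0.43 SE, adjusted p = 1.62e-08), and the vehicle livers themselves fell apart, with 26.0, 38.32 and 69.78 FPKM in vehicle 1 to 3 and 225.12, 239.24 and 167.52 FPKM in vehicle 4 to 6. Cyp4a10 (chromosome 4, 115518287 to 115533649) had 1917, 3052 and 3400.4 FPKM in DEHP livers, against 42.2, 127 and 204 FPKM in vehicle livers (log2 change 4.51 ± 0.30 SE, adjusted p = 5.04e-11). Cyp4a31, its close relative on the same chromosome, had 86.5 to 170.5 FPKM with a median of 149.6 in DEHP livers, against 1.64 to 5.01 FPKM with a median of 3.07 in vehicle livers (log2 change 5.46 ± 0.28 SE, adjusted p = 3.2e-13). Vehicle 1 to 3 also lay below vehicle 4 to 6 in Cyp4a31 and in Cyp4a10 (42.25, 64.3 and 94.87 against 188.81, 204.27 and 158.98 FPKM). Among the hepatocyte markers Apoa1 and Cyp2e1 split in the same direction, Apob and Fga in the opposite one, and the others did not split. The labels give no batch, and a subgroup among the vehicle livers was not tested. Cyp4a12a and Cyp4a12b, male-predominant members of the family, rose by 1.72 and 2.42 on the log2 scale. The Cyp4a genes are near copies of each other, and how the authors' counting divided shared reads is not given in the sources used here, so the split between them is uncertain. Aldh3a2, which oxidises fatty aldehydes, had 199.6 to 409 FPKM with a median of 309.8 in DEHP livers, against 58.8 to 121 FPKM with a median of 83 in vehicle livers (log2 change 1.85 ± 0.17 SE, adjusted p = 1.71e-08). The members that fell were Cyp4v3 (-0.34), Cyp4f13 (-0.20) and Cyp4f14 (-0.70), and the count lower was 1 without DEHP 1. Cyp4f13 lost its call without DEHP 1, 3, 4, 5 or 6, or vehicle 4, 5 or 6 (adjusted p up to 0.134), and Cyp4v3 lost its call without DEHP 1 (adjusted p up to 0.0582).

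In the peroxisomal beta-oxidation list 12 of 17 tested genes rose and 0 fell, with a median log2 change of 0.71 against -0.02 over all genes. Ehhadh (chromosome 16, 21761285 to 21787834), the bifunctional enzyme of the middle steps, had 1302, 2492 and 3557 FPKM in DEHP livers, against 65.8, 105 and 122 FPKM in vehicle livers (log2 change 4.63 ± 0.24 SE, adjusted p = 4.15e-13). Here too vehicle 1 to 3 (65.76, 74.52 and 97.26 FPKM) lay below vehicle 4 to 6 (111.95, 122.13 and 117.0 FPKM). Acaa1b, a thiolase of the last step, had 2729.9 to 5724 FPKM with a median of 4048 in DEHP livers, against 382 to 924 FPKM with a median of 712 in vehicle livers (log2 change 2.54 ± 0.21 SE, adjusted p = 1.93e-09). For these genes the lowest DEHP liver lay above the highest vehicle liver. Ech1, a dienoyl-CoA isomerase, rose by 1.33 on the log2 scale. The members not called included Acox2 (0.20, adjusted p = 0.0592), an oxidase of branched chains and bile acid intermediates, Phyh (0.08), which starts phytanate alpha-oxidation, and Scp2 (-0.18), which holds the sterol-side thiolase. For Acox2 the call depended on the libraries, since it was called without DEHP 4 (0.23, adjusted p = 0.034) and without vehicle 4 (0.22, adjusted p = 0.0444) and without vehicle 5 (0.25, adjusted p = 0.0217).

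Genes of the proteins that build and enclose peroxisomes had smaller median changes than those of the enzymes inside them. Of 16 peroxins tested, the factors of peroxisome assembly and division, 5 rose and 0 fell, with a median of 0.16. Pex11a, which promotes division, had 38.5 to 68.2 FPKM with a median of 44.9 in DEHP livers, against 28.1 to 39.3 FPKM with a median of 34.6 in vehicle livers (log2 change 0.48 ± 0.14 SE, adjusted p = 0.0105), with overlapping groups. Pex16, an early membrane assembly factor, rose by 0.50. The count higher was 3 without the tissue libraries and 3 without DEHP 6. Of 15 peroxisomal membrane and accessory proteins, 7 rose (median 0.24), among them the acyl-CoA importers Abcd3 (0.95) and Abcd2 (1.59) and the acyl-CoA synthetase Slc27a2 (0.61). Cat, the catalase that removes hydrogen peroxide in peroxisomes, had 1166, 1368 and 1397 FPKM in DEHP livers, against 897, 1211 and 1258 FPKM in vehicle livers. Those ranges overlapped, and Cat was not called (log2 change 0.21 ± 0.08 SE, adjusted p = 0.0581), although it was called without DEHP 1 (0.25, adjusted p = 0.0413) and without vehicle 4 (0.25, adjusted p = 0.0351).

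Thioesterases cut acyl-CoA back to free fatty acid and coenzyme A. Of 14 tested, 8 rose and 1 fell. Cytosolic Acot1 had 72.5, 175 and 368 FPKM in DEHP livers, against 12.5, 28.6 and 44.3 FPKM in vehicle livers (log2 change 2.76 ± 0.35 SE, adjusted p = 2.04e-06). Mitochondrial Acot2 had 8.3, 29.8 and 45.6 FPKM in DEHP livers, against 1.91, 2.36 and 2.74 FPKM in vehicle livers (log2 change 3.58 ± 0.32 SE, adjusted p = 8.55e-09). These genes lie next to each other on chromosome 12 and are close paralogs, so shared reads leave their split uncertain. Peroxisomal Acot8 rose by 1.12, and Them7, a less studied family member, by 1.24. Baat, which joins bile acids to taurine or glycine and belongs to the same fold, fell slightly (log2 change -0.29 ± 0.09 SE, adjusted p = 0.0198). Of 9 genes of coenzyme A synthesis and of the pantetheinases that recycle its precursor, 4 rose. Vnn1, the main liver pantetheinase and a known PPARα target, had 43.3, 61.7 and 90.4 FPKM in DEHP livers, against 5.22, 9.77 and 14.6 FPKM in vehicle livers (log2 change 2.69 ± 0.22 SE, adjusted p = 2.26e-09). Vnn3 rose by 0.89 and Coasy, the last enzyme of the synthesis, by 0.56, whereas the 4 pantothenate kinase genes were not called.

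Most genes of mitochondrial beta-oxidation rose. Of 19 tested genes, 17 rose, with a median of 0.74. Eci1 had 261 to 364 FPKM with a median of 328 in DEHP livers, against 95.4 to 129 FPKM with a median of 109 in vehicle livers (log2 change 1.48 ± 0.10 SE, adjusted p = 6.47e-11), and Decr1 had 97.7 to 144 FPKM with a median of 126 in DEHP livers, against 41.4 to 59.3 FPKM with a median of 50 in vehicle livers (log2 change 1.30 ± 0.10 SE, adjusted p = 3.09e-10); both enzymes prepare unsaturated chains. Hadhb, the beta subunit of the trifunctional protein, and Acadl, a long-chain dehydrogenase, rose by 1.00 and 0.98. The exception with a fall was Acadsb (-0.37, adjusted p = 0.0047), whose substrates come from isoleucine rather than from straight fatty acids, and Etfa was not called (0.07). Of 9 carnitine shuttle and ketogenesis genes 7 rose. Slc25a20, the carnitine-acylcarnitine carrier, rose by 0.96. Cpt1a, the regulated gate of the shuttle, had 70.4, 79.4 and 84.6 FPKM in DEHP livers, against 47.8, 70.6 and 88.8 FPKM in vehicle livers, and its ranges overlapped (log2 change 0.15 ± 0.12 SE, adjusted p = 0.378). Ucp2, a carrier of the inner mitochondrial membrane of the uncoupling protein family, had 79.8, 135 and 188 FPKM in DEHP livers, against 13.6, 17.2 and 26 FPKM in vehicle livers (log2 change 2.89 ± 0.22 SE, adjusted p = 4.18e-10), and of the 16 carriers in its list 5 rose and 3 fell, with 5 lower without the tissue libraries. Slc25a25, an ATP-magnesium carrier, was 1 of those that fell (-1.58).

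**Figure D3:**
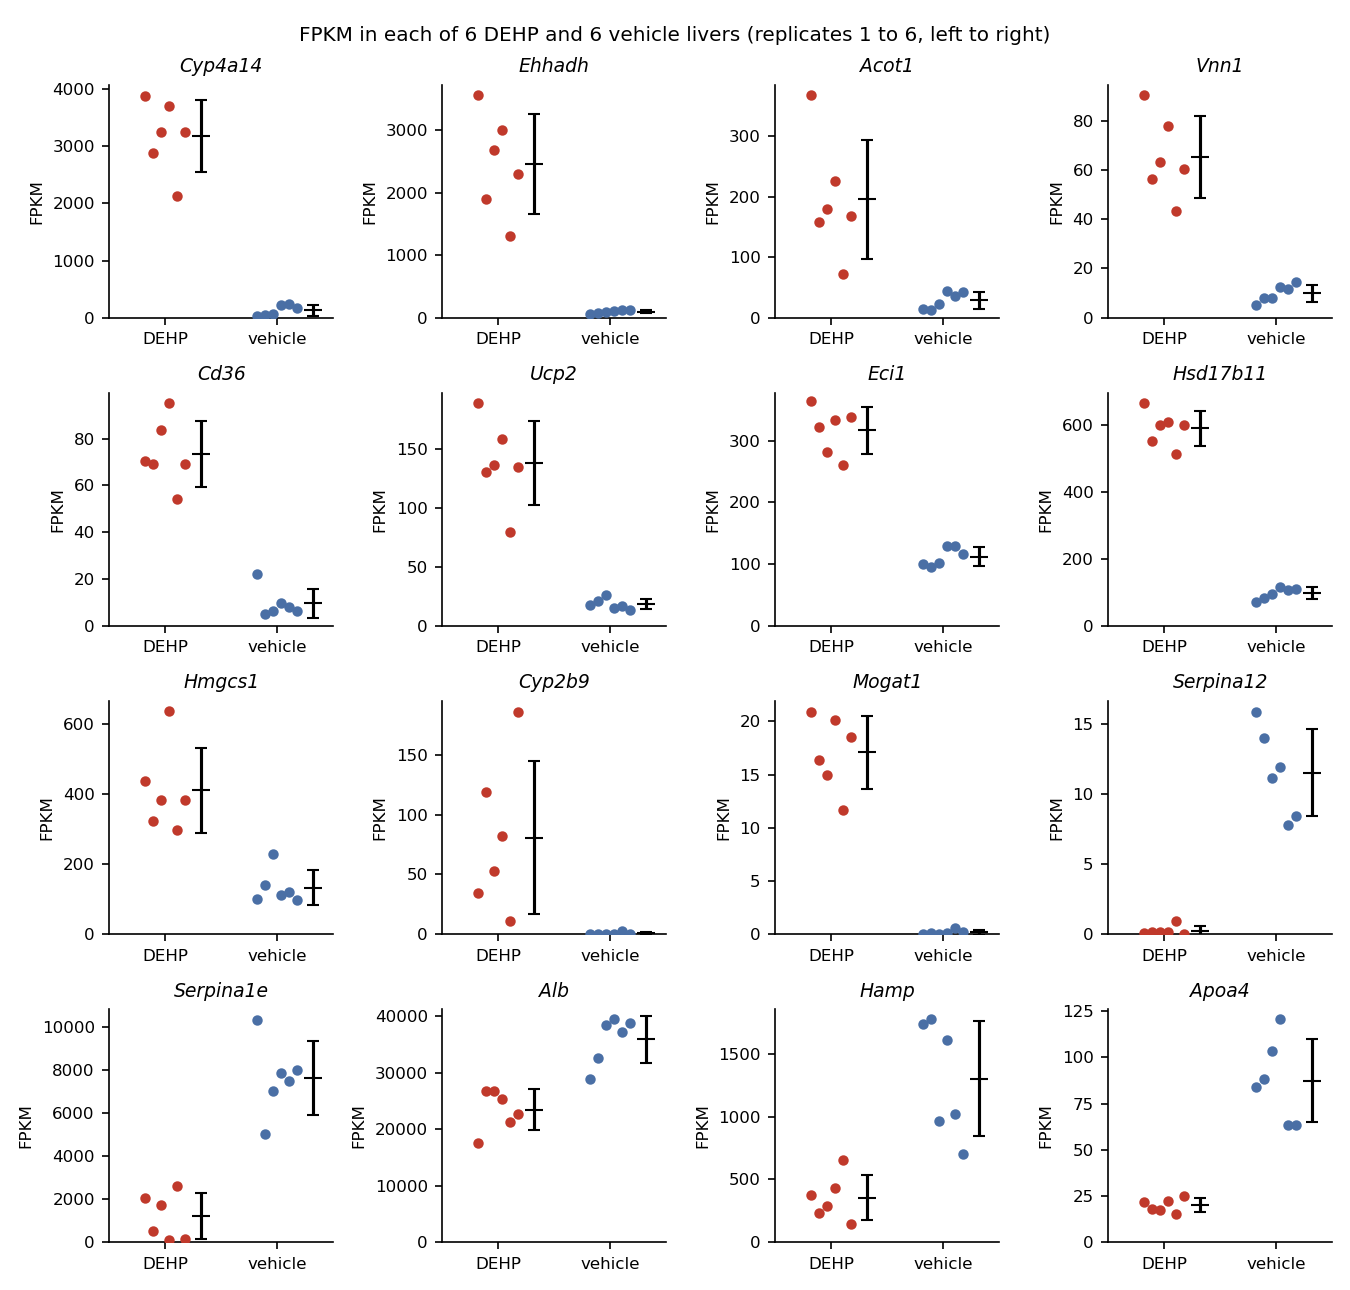
FPKM of 16 genes in each of 6 DEHP (red) and 6 vehicle (blue) livers, on linear axes from 0, with 1 point per library in the order of the replicate numbers and the mean and SD in black. In all 16 genes the groups do not overlap, with DEHP livers above vehicle livers in the first 11 panels and below them in the last 5.

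The gene of PPARα itself was not called, and several other receptor genes fell. Ppara had 29.2, 31.8 and 33.9 FPKM in DEHP livers, against 20.2, 32.7 and 38.7 FPKM in vehicle livers (log2 change -0.18 ± 0.12 SE, adjusted p = 0.299), with overlapping ranges. Of 24 nuclear receptors and coactivators tested, 1 rose and 6 fell, and without the tissue libraries 3 fell. Pparg, the adipogenic member of the family, rose from low levels, with 4.53 to 7.98 FPKM with a median of 5.63 in DEHP livers, against 2.48 to 4.74 FPKM with a median of 3.53 in vehicle livers, which overlap (log2 change 0.72 ± 0.15 SE, adjusted p = 0.00107). Hnf4a, the master regulator of hepatocyte identity, had 122, 139.9 and 156 FPKM in DEHP livers, against 167, 177 and 196 FPKM in vehicle livers (log2 change -0.37 ± 0.09 SE, adjusted p = 0.00381). Thrb, the main liver thyroid hormone receptor, fell by 0.44 and Nr1h4, the bile acid receptor FXR, by 0.35 on the log2 scale. Nr1i3 (-0.13), which encodes CAR, and Nr1i2 (-0.08), which encodes PXR, were not called.

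Fatty acid uptake and binding genes rose in 11 of 18 cases and fell in 1, and without the tissue libraries in 13 and 0; the single fall was the muscle gene Fabp3. Cd36, a scavenger receptor that carries fatty acids, had 54.1, 69.9 and 95 FPKM in DEHP livers, against 5.11, 7.39 and 22 FPKM in vehicle livers (log2 change 2.90 ± 0.24 SE, adjusted p = 2.85e-09); the highest vehicle value was that of vehicle 1, and the change without the tissue libraries was 3.31. Slc27a1, a fatty acid transport protein more typical of muscle and fat, had 17 to 47.5 FPKM with a median of 29.1 in DEHP livers, against 2.05 to 8.94 FPKM with a median of 3.21 in vehicle livers (log2 change 2.94 ± 0.26 SE, adjusted p = 9.32e-09). Fabp1, the abundant liver fatty acid binding protein (chromosome 6, 71199879 to 71205034), had 9814, 11743 and 15103 FPKM in DEHP livers, against 4108, 5433 and 6391 FPKM in vehicle livers (log2 change 1.15 ± 0.12 SE, adjusted p = 8.56e-08), without overlap. Fabp4, a binding protein of adipocytes and macrophages, ranged from 10.6 to 145 FPKM in DEHP livers and from 7.65 to 43.9 FPKM in vehicle livers, with overlap (log2 change 1.73 ± 0.50 SE, adjusted p = 0.0119). Its call was lost without DEHP 1 (adjusted p up to 0.0841). Its highest values were 145.12 FPKM in DEHP 1, the library with the highest macrophage sum, and 75.86 FPKM in DEHP 4, whose macrophage sum was 234 FPKM. Among vehicle livers it was highest in vehicle 1 (43.89 FPKM). The adipocyte markers Adipoq, Plin1, Lep and Retn were at 0 in DEHP 1 to 5, so the adipocyte marker sum of those libraries, 23.6 to 160.0 FPKM, came from Fabp4, Cfd, Adrb3 and Cidec. Cfd was not called with all libraries (1.36), and without vehicle 1 it changed by 4.66 (edgeR adjusted p = 0.00672). It had 2.79 to 7.52 FPKM in DEHP 1 to 5 and 21.87 FPKM in DEHP 6. In vehicle 1 it had 18.47 FPKM, against at most 0.89 FPKM in the other vehicle livers. The part of macrophage or adipocyte RNA in the Fabp4 value was not tested.

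In lipid storage, genes of droplets and triglycerides were called higher more often than lower. Their counts lower were near the share over all genes tested, 11.6%, and are not read as a result about these lists. Mogat1 (chromosome 1, 78511060 to 78606964), a monoacylglycerol acyltransferase that is nearly silent in normal adult mouse liver, had 11.7, 17.5 and 20.9 FPKM in DEHP livers, against 0, 0.13 and 0.61 FPKM in vehicle livers (log2 change 6.37 ± 0.38 SE, adjusted p = 3.7e-12). Of 15 genes of triglyceride assembly and lipolysis, 5 rose and 2 fell. Mgll, which cleaves monoacylglycerol, rose by 1.30 and Lipe, hormone-sensitive lipase, by 0.78, while Lpin1, a phosphatidate phosphatase induced by fasting, had 25.2 to 32.6 FPKM with a median of 27.8 in DEHP livers, against 52 to 94.2 FPKM with a median of 74.9 in vehicle livers (log2 change -1.37 ± 0.20 SE, adjusted p = 1.63e-05) and Dgat2, an acyltransferase of the last step, fell by 0.20 on the log2 scale, a call that was lost without DEHP 3, 4 or 6, or vehicle 2, 4, 5 or 6 (adjusted p up to 0.0901). Of 16 droplet proteins 5 rose and 2 fell. Hsd17b11, a droplet-associated dehydrogenase, had 513, 599 and 665 FPKM in DEHP livers, against 72.2, 102 and 116 FPKM in vehicle livers (log2 change 2.58 ± 0.11 SE, adjusted p = 6.53e-15; lowest of the droplet list). Fitm1, which helps form droplets and is better known from muscle, rose by 1.38. Plin4, a droplet coat protein, had 0.64 to 0.95 FPKM with a median of 0.765 in DEHP livers, against 1.92 to 7.88 FPKM with a median of 4.59 in vehicle livers (log2 change -2.59 ± 0.51 SE, adjusted p = 0.000519), and Plin5 fell by 0.49, while the main liver coat gene Plin2 was not called (0.02, adjusted p = 0.905). Of 6 glycerol handling genes the channels Aqp9 (0.27) and Aqp11 (0.28) were called higher, and neither was called without the tissue libraries (0.18 and 0.16).

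Genes of de novo lipogenesis moved in both directions. Of 14 genes 7 rose and 3 fell; without the tissue libraries 4 rose, and the count lower was 1 without DEHP 2. Me1, malic enzyme, which supplies NADPH, had 135 to 290.2 FPKM with a median of 188 in DEHP livers, against 51.5 to 77.1 FPKM with a median of 70.8 in vehicle livers (log2 change 1.48 ± 0.17 SE, adjusted p = 2.95e-07). Scd1, the main stearoyl-CoA desaturase, had 1655 to 3968 FPKM with a median of 2524 in DEHP livers, against 753 to 1964 FPKM with a median of 1279 in vehicle livers, with overlap (log2 change 0.97 ± 0.23 SE, adjusted p = 0.00247). Pklr, liver pyruvate kinase, had 22, 28.9 and 32.8 FPKM in DEHP livers, against 56, 76.7 and 107 FPKM in vehicle livers (log2 change -1.54 ± 0.15 SE, adjusted p = 3.78e-08). Mlxipl, the carbohydrate response factor ChREBP, also fell (-0.46) and lost its call without DEHP 1, 2 or 6, or vehicle 3, 5 or 6 (adjusted p up to 0.0744). In the desaturase and elongase list 6 of 11 genes rose, including Fads2 (1.09), the first desaturase of polyunsaturated fatty acids, Hsd17b12 (0.71) and Elovl5 (0.90). Elovl3, an elongase with male-biased expression in mouse liver, fell (-0.91, adjusted p = 0.0232) and lost its call without DEHP 2 or 4, or vehicle 4 or 6 (adjusted p up to 0.0555).

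All enzymes of cholesterol synthesis that were tested rose. The mevalonate pathway had 10 of 10 genes called higher, with a median of 1.12, and the sterol ring enzymes 10 of 10, with a median of 0.93; without the tissue libraries the counts were 10 and 9. Hmgcs1 (chromosome 13, 119690351 to 119708260), the cytosolic synthase at the entry of the pathway, had 296, 382 and 636 FPKM in DEHP livers, against 98.1, 116 and 229 FPKM in vehicle livers (log2 change 1.60 ± 0.26 SE, adjusted p = 5.06e-05). Acat2, the thiolase that makes its substrate, rose by 1.38, and Sqle, squalene epoxidase, by 0.72. These enzymes are known targets of SREBP2, whose gene Srebf2 rose by 0.45, as did that of its escort Scap (0.46). Of 16 genes of sterol sensing and export, 6 rose and 0 fell, and without the tissue libraries 4 rose and 1 fell. Abcg5 (0.71) and Abcg8 (0.81), which pair to form the sterol exporter into bile, both rose.

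Promoter letters were read for the genes above from the RefSeq table (GRCm38.p6), which gives 250 bases before to 50 after each start. A direct repeat of the hexamer AGGNCA with 1 base between the copies, the classical PPAR element, was searched on both strands. It was present in 0.451% of the 27025 genes with a promoter in the table, in 1 of 1239 genes called higher, and in 0 of the 11 genes with a promoter there among the 15 strongest rises. The gene called higher that held it was Fabp1, and its promoter is shown for that reason, from chr6:71199752-71199878 on the + strand, up to the base before the start, with the match in capitals. The match reads as the reverse complement of the repeat and lies 67 to 55 bases before the start. The core TCACNCCAC of the sterol regulatory element, searched on both strands after the sterol genes had been seen, was present in 1.44% of all genes of the table, and in 1 of the 15 sterol synthesis genes with a promoter there. It was also in 2 of the 11 strongest rises with a promoter. The sterol synthesis gene that held it was Hmgcs1, shown from chr13:119690154-119690350 on the + strand up to the base before the start, with the match in capitals 137 to 129 bases before it. The pentamer CCAAT, likewise searched afterwards, was in 14 of those 15 sterol genes, against 41.1% of all genes of the table. None of the 3 motifs contains another, and a match is a description of letters and not a site.
Fabp1: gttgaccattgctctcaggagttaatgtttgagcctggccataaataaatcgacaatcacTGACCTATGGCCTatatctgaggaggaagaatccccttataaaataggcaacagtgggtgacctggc
Hmgcs1: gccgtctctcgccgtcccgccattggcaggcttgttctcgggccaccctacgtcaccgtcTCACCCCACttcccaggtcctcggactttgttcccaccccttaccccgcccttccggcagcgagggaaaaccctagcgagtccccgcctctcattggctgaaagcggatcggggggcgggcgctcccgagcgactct

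Bile acid genes changed in both directions. Of 12 synthesis genes 3 rose and 2 fell. Cyp7a1, the rate-limiting enzyme of the classical route, had 13.5, 28.7 and 43.9 FPKM in DEHP livers, against 6.95, 13.5 and 21.2 FPKM in vehicle livers with overlapping ranges (log2 change 1.01 ± 0.35 SE, adjusted p = 0.036), and lost its call without DEHP 1, 3, 4 or 5, or vehicle 1, 2, 3, 4 or 5 (adjusted p up to 0.0928). Cyp8b1, which sets the share of cholate, had 405, 421 and 524 FPKM in DEHP livers, against 112, 200.3 and 404 FPKM in vehicle livers (log2 change 0.97 ± 0.25 SE, adjusted p = 0.00618). Cyp39a1, a hydroxylase of oxysterols, had 0.72, 2.12 and 3.2 FPKM in DEHP livers, against 6.33, 10.1 and 14.3 FPKM in vehicle livers (log2 change -2.36 ± 0.30 SE, adjusted p = 1.95e-06). Of 15 transporters 4 rose and 5 fell, and the count higher was 2 without DEHP 1, 2 or 6, or vehicle 1, 2, 3 or 5. Without the tissue libraries 2 transporters rose and 8 fell. Slco1a1, a sinusoidal anion carrier with male-biased expression, had 4.09, 8.91 and 45 FPKM in DEHP livers, against 57.5, 95.5 and 101 FPKM in vehicle livers (log2 change -2.41 ± 0.51 SE, adjusted p = 0.0011), and Slc22a7, an organic anion transporter, fell by 1.67 on the log2 scale. Abcc4, an efflux pump towards blood that is almost silent in normal liver, had 1.74 to 5.72 FPKM with a median of 3.3 in DEHP livers, against 0.12 to 0.86 FPKM with a median of 0.44 in vehicle livers (log2 change 2.82 ± 0.32 SE, adjusted p = 4.15e-07), and Abcc3, another such pump, rose by 0.98.

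Among the drug-metabolising cytochromes P450, several genes of the 2A and 2B subfamilies rose, and the Cyp2 family as a whole was called in both directions. Of 31 Cyp2 genes 9 rose and 8 fell, with a median of -0.04. Cyp2b9 (chromosome 7, 26173350 to 26210661), a form that in mice is normally expressed in females, had 10.7, 67.5 and 186 FPKM in DEHP livers, against 0.08, 0.27 and 2.57 FPKM in vehicle livers (log2 change 6.98 ± 0.76 SE, adjusted p = 1.94e-07), which made it the largest of the rises named by rule, and its highest DEHP value was 17.3 times its lowest. Cyp2b10, the classical CAR target, had 8.9, 26 and 35.8 FPKM in DEHP livers, against 0.23, 3.29 and 4.85 FPKM in vehicle livers (log2 change 3.03 ± 0.43 SE, adjusted p = 1.02e-05). Cyp2a4, a female-biased steroid 15-alpha hydroxylase, had 9.79, 16.8 and 33.5 FPKM in DEHP livers, against 0, 0.305 and 0.6 FPKM in vehicle livers (log2 change 6.00 ± 0.55 SE, adjusted p = 1.19e-08), and Cyp2a22 had 7.08 to 24.4 FPKM with a median of 14.7 in DEHP livers, against 1.15 to 2.77 FPKM with a median of 1.48 in vehicle livers (log2 change 3.16 ± 0.34 SE, adjusted p = 1.63e-07). Cyp2a5 rose by 0.87, and Cyp2a12 was not called (-0.02, adjusted p = 0.913). Near-identical copies exist in both clusters on chromosome 7, and the division of their reads is uncertain. Cyp2d40 had 16.6 to 27.3 FPKM with a median of 21.1 in DEHP livers, against 38.1 to 80.3 FPKM with a median of 53.2 in vehicle livers (log2 change -1.38 ± 0.14 SE, adjusted p = 1.01e-07), and Cyp2c70, which makes muricholate in mice, fell by 1.14. The PXR target Cyp3a11 had 1854 to 2629 FPKM with a median of 2192 in DEHP livers, against 1405 to 2404 FPKM with a median of 2061 in vehicle livers, with overlap, and was not called (log2 change 0.19 ± 0.12 SE, adjusted p = 0.263), nor was Cyp1a2 (-0.15, adjusted p = 0.351), a target of the aryl hydrocarbon receptor. Por, the reductase that feeds electrons to all of these enzymes, rose by 0.64. Of 6 tested genes of the Cyp1 and Cyp3a list, which includes Por, 3 rose and 0 fell, and without the tissue libraries 2 rose. Por was 1 of the 3, and the others were Cyp3a genes other than Cyp3a11.

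Genes that differ between the sexes in mouse liver were called higher more often than lower where they are female-biased, and lower more often than higher where they are male-biased. Of 15 tested female-biased genes 11 rose and 0 fell, with a median of 1.59. The count lower was 2 without DEHP 5, with Cyp2c40 and Cyp2c69 called. Of this list 27 genes were present in the data, and those not tested did not reach the expression filter. Members low in vehicle livers, such as Cyp2a4 (at most 0.6 FPKM), were tested only through other groups, so the count and median favour rises. Of 19 male-biased genes 10 fell and 2 rose, with a median of -1.16; without the tissue libraries 7 fell. Both lists share members with the lipid and P450 lists, since Cyp4a10, Cyp4a14, Acot3, Acot4 and Abcd2 are counted as female-biased and the 2 male-biased genes that rose were Cyp4a12a and Cyp4a12b. Other members were Cyp17a1 (1.32), a steroid hydroxylase, female-biased and higher, and Mup20 (-1.23), the male urinary pheromone darcin, lower. Growth hormone is known to set this pattern, and its receptor gene Ghr had 125 to 156 FPKM with a median of 142 in DEHP livers, against 168 to 193 FPKM with a median of 185 in vehicle livers (log2 change -0.43 ± 0.07 SE, adjusted p = 3.85e-05). Igf1, the growth factor it induces, fell by 0.58, and Igfbp2, a binding protein of that factor, rose by 1.04. The growth hormone target Socs2 (-0.79, adjusted p = 0.483) and the repressor Bcl6 (-0.05, adjusted p = 0.965) were not called. Of 15 tested genes of the growth hormone and IGF axis 3 fell, 1 rose and 11 were not called, and without the tissue libraries 2 fell. Over all genes tested the shares were 11.6% lower and 14.4% higher, and these counts are not read as a result about the list. A role of growth hormone in the sex-biased changes was not tested.

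Conjugating enzymes rose in part. Of 21 glutathione transferases 13 rose and 2 fell. Gstt2 had 86.2 to 132 FPKM with a median of 118 in DEHP livers, against 25 to 42.6 FPKM with a median of 33.1 in vehicle livers (log2 change 1.70 ± 0.17 SE, adjusted p = 3.78e-08), and Gstm4 rose by 1.16. The 2 that fell were the pi-class genes Gstp1 and Gstp2, which are higher in males and nearly identical to each other. Gstp1 had 1312, 1426 and 2145 FPKM in DEHP livers, against 3065, 3596 and 5156 FPKM in vehicle livers (log2 change -1.27 ± 0.17 SE, adjusted p = 6.72e-06). Of 22 glucuronosyl and sulfotransferase genes 6 rose and 4 fell, and the count lower was 2 without DEHP 1, 2 or 6. Ugdh, which makes UDP-glucuronate, rose by 0.92, and Ugt1a1, the bilirubin transferase, by 0.57; Ugt1a genes share their last exons. Carboxylesterases fell and rose side by side, as Ces1c changed by -0.92 and Ces1b by -1.31, against Ces2c by 1.03. Ephx2, a soluble epoxide hydrolase found in peroxisomes and cytosol, had 512 to 691 FPKM with a median of 645 in DEHP livers, against 251 to 376 FPKM with a median of 337 in vehicle livers (log2 change 0.95 ± 0.11 SE, adjusted p = 4.8e-07).

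Genes of oxidative defence rose in part. Of 18 NRF2 targets 11 rose and 1 fell. The count lower was 2 without DEHP 1 or vehicle 4. Those named by the rule were Taldo1 (0.67) and Pgd (0.86), both of the pentose phosphate pathway, the ferritin light chain gene Ftl1 (0.86), and Ugdh, described above; all rose. Nqo1 rose by 0.92, while Hmox1 (-0.15, adjusted p = 0.679) and Gclc (-0.05, adjusted p = 0.796), targets of the same factor, were not called. Of 17 antioxidant enzymes 9 rose, with Gpx4 (0.76) and Prdx1 (0.39) among them, and 2 fell, namely Prdx4 (-0.59), which works in the endoplasmic reticulum, and Txnip (-0.64), an inhibitor of thioredoxin, which lost its call without DEHP 3 or 5, or vehicle 1 or 6 (adjusted p up to 0.0917). Of 13 alcohol and aldehyde dehydrogenases 7 rose, including Aldh9a1 (0.83) and Aldh1a1 (0.91), and of 19 retinoid genes 6 rose, led by the retinol dehydrogenase Rdh16 (57.3 to 128 FPKM with a median of 90.9 in DEHP livers, against 13.4 to 31 FPKM with a median of 27.1 in vehicle livers; log2 change 1.85 ± 0.20 SE, adjusted p = 1.98e-07), and 2 fell, Rdh5 (-0.51) and Stra6l (-0.27).

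Many genes of proteins that hepatocytes secrete were lower. Of 19 complement genes 13 fell and 0 rose (median -0.36), of 21 coagulation genes 13 fell and 0 rose (median -0.27), and of 17 clade A serpins 10 fell and 0 rose (median -0.48). C8a, a component of the membrane attack complex, had 89.7, 99.2 and 162 FPKM in DEHP livers, against 196, 223 and 267 FPKM in vehicle livers (log2 change -1.02 ± 0.14 SE, adjusted p = 1.09e-05). C1s1, a protease of the classical pathway, fell by 0.84 and Cfi, which shuts the pathway down, by 0.56. The clotting factors F5, F7 and F11 fell by 0.52, 0.44 and 0.69 on the log2 scale. Serpina1e (chromosome 12, 103946931 to 103956897), a male-biased copy of alpha-1 antitrypsin, had 125, 1132 and 2640.2 FPKM in DEHP livers, against 5019, 7697 and 10320.1 FPKM in vehicle livers (log2 change -2.67 ± 0.71 SE, adjusted p = 0.00696), and its highest DEHP value was 21.1 times its lowest. The copies Serpina1c (-0.87) and Serpina1d (-0.48) also fell, and reads shared among them make the individual values uncertain. Serpina12, which encodes vaspin (chromosome 12, 104028769 to 104044443), had 0, 0.135 and 0.93 FPKM in DEHP livers, against 7.82, 11.6 and 15.8 FPKM in vehicle livers (log2 change -5.61 ± 0.47 SE, adjusted p = 2.46e-09), the largest fall named by rule. Serpina3k, the mouse kallikrein-binding protein, had 2243 to 5430.2 FPKM with a median of 3321 in DEHP livers, against 5649 to 7239 FPKM with a median of 6023 in vehicle livers (log2 change -0.87 ± 0.20 SE, adjusted p = 0.00213).

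Albumin and other carriers were lower too. Alb had 17613, 24104 and 26874 FPKM in DEHP livers, against 28988, 37810.1 and 39584 FPKM in vehicle livers (log2 change -0.64 ± 0.11 SE, adjusted p = 0.000179). Of 24 carriers and major urinary proteins 7 fell and 0 rose, and the count lower was 13 without DEHP 5. Among them were Gc (-0.37), the vitamin D carrier, and Ambp (-0.40). Mup3, a major urinary protein, had 778, 1491 and 4427 FPKM in DEHP livers, against 6872, 7307 and 8561 FPKM in vehicle livers (log2 change -1.89 ± 0.33 SE, adjusted p = 0.000125); most of the other Mup genes, which are near copies, were not called. The 9 hepatocyte markers summed to 45208 to 53259 FPKM in DEHP livers, against 55955 to 73976 FPKM in vehicle livers. Of these markers 6 fell and 1, Cyp2e1 (0.49), rose, and the list overlaps with the secreted protein lists. In whole liver, fewer cells of a type and less RNA per cell cannot be told apart.

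Few acute phase reactants were called. Of 23 tested 4 fell and 2 rose, near the shares over all genes tested, 11.6% lower and 14.4% higher. These counts are not read as a result about the list. The count lower was 7 without vehicle 5 or 6. Crp fell by 0.40, while Saa1 (-1.74, adjusted p = 0.111) and Hp (0.33, adjusted p = 0.313) were not called. Apolipoproteins fell more often than they rose, 6 against 2 of 19, and the count higher was 1 without the tissue libraries and 1 without DEHP 1, 2, 5 or 6, or vehicle 1, 2, 3 or 6. Apoa4, made by intestine and fasted liver, had 15.3, 20 and 25.4 FPKM in DEHP livers, against 63.4, 86.2 and 121 FPKM in vehicle livers (log2 change -2.14 ± 0.22 SE, adjusted p = 6.05e-08). Apoc3, an inhibitor of triglyceride clearance, fell by 0.56. Pltp, the phospholipid transfer protein of plasma, had 111, 231 and 282 FPKM in DEHP livers, against 21.4, 24.6 and 39.7 FPKM in vehicle livers (log2 change 2.92 ± 0.21 SE, adjusted p = 2.52e-10). Of 20 hepatokines 8 fell and 1 rose. Tsku, a secreted leucine-rich protein, had 7.21 to 21.4 FPKM with a median of 13.3 in DEHP livers, against 24.6 to 67.7 FPKM with a median of 48.2 in vehicle livers (log2 change -1.87 ± 0.37 SE, adjusted p = 0.000515), Inhba, an activin subunit, fell by 1.89, and Ahsg, fetuin A, by 0.57. Fgf21, a fasting hormone and known PPARα target, did not reach the expression filter and was not tested. Hamp, the iron hormone hepcidin, had 148, 333 and 658 FPKM in DEHP livers, against 705, 1314 and 1771 FPKM in vehicle livers (log2 change -1.91 ± 0.32 SE, adjusted p = 8.96e-05), whereas Fth1, a ferritin gene, rose by 0.49. Ftl1, the other ferritin gene named, had 7457, 8330.4 and 10729.6 FPKM in DEHP livers, against 4082, 4513 and 5230.0 FPKM in vehicle livers. Of the 15 iron genes 3 rose and 3 fell.

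**Figure D4:**
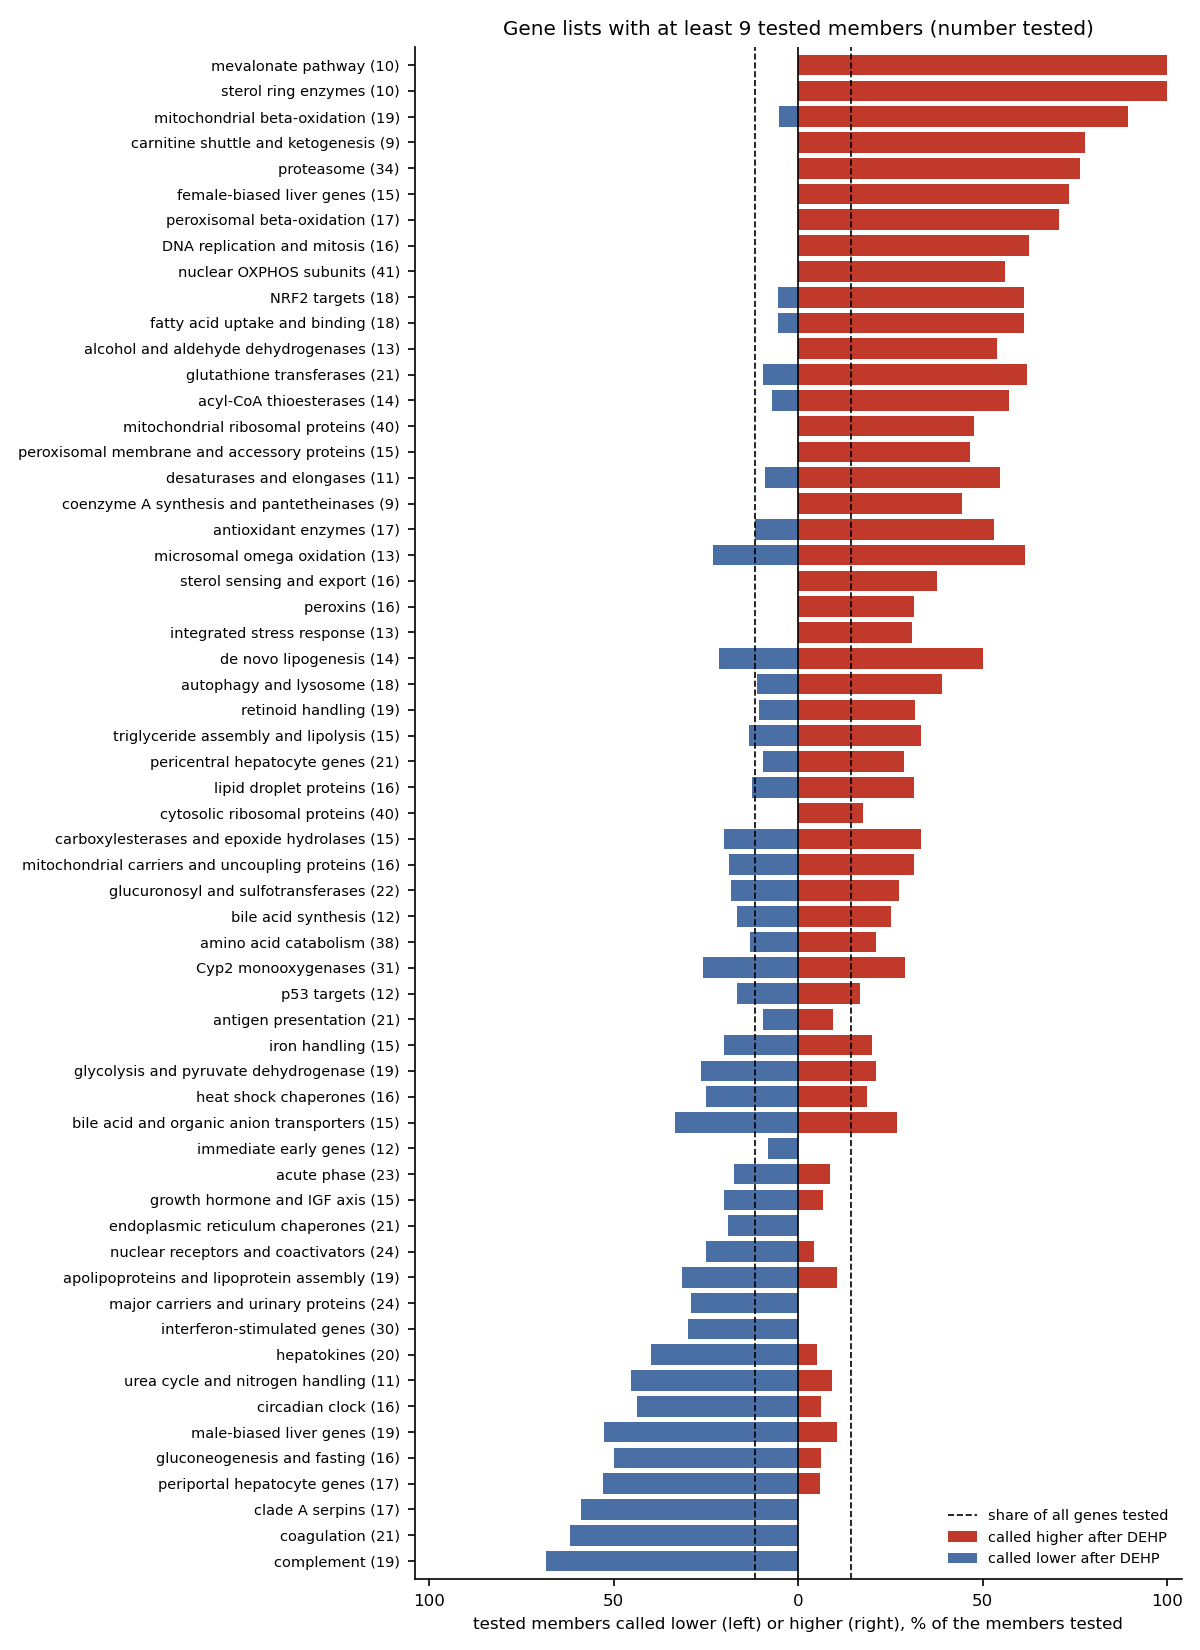
Share of tested members called higher (red, right) and lower (blue, left) after DEHP in the gene lists with at least 9 tested members, in % of the members tested (number in parentheses). Dashed lines mark the shares over all genes tested, 14.4% higher and 11.6% lower; sterol synthesis and oxidation lists stand at the top and complement, coagulation and clade A serpins at the bottom.

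Several genes of glucose production fell. In the list of gluconeogenesis and fasting, 8 of 16 fell and 1 rose, and the count higher was 2 without the tissue libraries and 2 without vehicle 1 or 6. G6pc, glucose-6-phosphatase, had 78.5, 97 and 131 FPKM in DEHP livers, against 145, 219 and 241 FPKM in vehicle livers (log2 change -1.03 ± 0.19 SE, adjusted p = 0.000281), and its partner transporter Slc37a4 had 40.7 to 60.4 FPKM with a median of 53.1 in DEHP livers, against 61.8 to 102 FPKM with a median of 86.7 in vehicle livers (log2 change -0.70 ± 0.12 SE, adjusted p = 7.73e-05). Tat, a glucocorticoid-induced aminotransferase, fell by 0.63, and Foxo1, the insulin-sensitive factor upstream of these genes, by 0.54. Angptl4, a lipase inhibitor that PPARα is known to induce, was among the genes that fell (-1.07, adjusted p = 0.00673). Pdk4, a kinase that limits glucose oxidation and another known target, had 3.86 to 12.7 FPKM with a median of 8.45 in DEHP livers, against 2.28 to 34.7 FPKM with a median of 3.55 in vehicle livers, with overlap (log2 change -0.02 ± 0.51 SE, adjusted p = 0.983); the highest vehicle value belonged to vehicle 1, the library with muscle RNA, and without it the change was 1.37 (adjusted p = 0.00224). In glycolysis 4 of 19 genes rose and 5 fell, with Pgam1 (0.51) and Pdk2 (0.65) higher and Pfkfb3 (-1.93), which makes an activator of phosphofructokinase, lower. The count higher was 2 without DEHP 1, and the count lower 3 without vehicle 2 or 4.

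Urea cycle and periportal genes were called lower more often than higher. Of 11 urea cycle genes 5 fell and 1 rose, the count lower was 3 without DEHP 1, and the count higher 0 without DEHP 6 or vehicle 1. Cps1, the entry enzyme, had 458 to 761 FPKM with a median of 684 in DEHP livers, against 759.6 to 959 FPKM with a median of 875 in vehicle livers, with overlap (log2 change -0.39 ± 0.11 SE, adjusted p = 0.00897), and Asl and Arg1 fell by 0.38 and 0.34. Of 17 periportal genes, which are expressed around the incoming vessels, 9 fell and 1 rose, and 6 of those that fell are also in the urea or glucose lists; the count higher was 2 without vehicle 2 or 3. Of 21 pericentral genes 6 rose and 2 fell; Rhbg, an ammonium channel, rose by 1.10, while Glul, glutamine synthetase of the innermost rim, was not called (0.23, adjusted p = 0.0815). For amino acid breakdown, of 38 tested 8 rose, such as Aldh4a1 (0.64) of the proline path and Bckdha (0.52) of the branched-chain path, and 5 fell, such as Cbs (-0.56), which starts transsulfuration; the count lower was 8 without DEHP 5 or vehicle 1. Without the tissue libraries 4 rose and 9 fell. The shares over all genes tested, with all libraries, were 14.4% higher and 11.6% lower, and no direction of the list is read from these counts.

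Clock genes fell more often than they rose, and stress genes were called in both directions. Of 16 clock genes 7 fell and 1 rose. Per1 had 0.77 to 2.53 FPKM with a median of 1.63 in DEHP livers, against 4.03 to 7.21 FPKM with a median of 4.96 in vehicle livers (log2 change -1.66 ± 0.31 SE, adjusted p = 0.000281) and Bhlhe40 had 6.91 to 9.89 FPKM with a median of 8.86 in DEHP livers, against 13.7 to 29 FPKM with a median of 21.7 in vehicle livers (log2 change -1.35 ± 0.21 SE, adjusted p = 3.74e-05), while the repressor Nr1d1 had 3.4 to 24.2 FPKM with a median of 20 in DEHP livers, against 3.17 to 9.7 FPKM with a median of 5.49 in vehicle livers, with overlap (log2 change 1.49 ± 0.33 SE, adjusted p = 0.00151). Time of collection is not given in the labels. Of 12 p53 targets 2 rose and 2 fell, and the count higher was 1 without DEHP 1 or vehicle 6 and 4 without vehicle 1. Cdkn1a, the cell cycle inhibitor p21, had 20.7 to 36.8 FPKM with a median of 35.2 in DEHP livers, against 43.2 to 83.7 FPKM with a median of 50 in vehicle livers (log2 change -0.80 ± 0.16 SE, adjusted p = 0.00059), and Bbc3, a pro-apoptotic BH3 protein, rose by 1.19. Gadd45g, a stress gene of the Gadd45 family, had 2.72, 3.01 and 4.8 FPKM in DEHP livers, against 5.08, 14.6 and 23.5 FPKM in vehicle livers (log2 change -2.13 ± 0.48 SE, adjusted p = 0.00183). Of 12 immediate early genes Dusp1, a phosphatase that damps MAP kinases, was the 1 called (-1.25), with both edgeR and DESeq2, and the count lower was 2 without DEHP 1. The p53 and immediate early counts are near or below the shares over all genes tested, 14.4% higher and 11.6% lower. They are not read as results about those lists. Of 16 heat shock chaperones 3 rose and 4 fell, and the count lower was 2 without the tissue libraries and 2 without DEHP 2 or 6. The mitochondrial chaperones Hspd1 (0.67) and Hspe1 (0.76) rose, whereas cytosolic Hspa1b (-0.64), which shares reads with its copy Hspa1a, fell. Of 21 chaperones of the endoplasmic reticulum 4 fell, led by Herpud1 (137 to 213 FPKM with a median of 178 in DEHP livers, against 253 to 398 FPKM with a median of 304 in vehicle livers; log2 change -0.86 ± 0.16 SE, adjusted p = 0.000344), and 0 rose; the count lower was 7 without DEHP 5. In the integrated stress response 4 of 13 genes rose, Trib3 (1.02) among them, while Ddit3 was not called (-0.26).

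Genes of DNA replication that reached the expression filter were called higher more often than lower, from a low base. Of 16 tested genes 10 rose and 0 fell (median 0.87), and a further 12 of the list, Mki67, Top2a and Cdk1 among them, did not reach the expression filter. Mcm6, a subunit of the replicative helicase, had 4.75, 6.65 and 11.1 FPKM in DEHP livers, against 1.2, 1.71 and 2.42 FPKM in vehicle livers (log2 change 1.96 ± 0.25 SE, adjusted p = 1.89e-06), and Mcm2 and Mcm3 rose by 1.23 and 0.95. Cdc20, an activator of mitotic exit, had 0.56, 2.09 and 4 FPKM in DEHP livers, against 0.08, 0.2 and 0.49 FPKM in vehicle livers (log2 change 3.19 ± 0.53 SE, adjusted p = 6.31e-05). As no vehicle liver reached 1 FPKM for Cdc20, it was tested only through its level in other groups. Genes this low in vehicle livers enter the list through the groups where they are high, so the count and median favour rises. Pcna (0.17, adjusted p = 0.248) and Ccnd1 (-0.28, adjusted p = 0.369) were not called. Without DEHP 1, the library with the most macrophage and neutrophil RNA, 8 of the 16 were called higher.

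Components of the proteasome and of mitochondria rose by small amounts in many genes. Of 34 proteasome genes 26 rose (median 0.31), with Psmb5, the catalytic subunit for chymotrypsin-like cleavage, at 161 to 233 FPKM with a median of 186 in DEHP livers, against 105 to 123 FPKM with a median of 120.3 in vehicle livers (log2 change 0.65 ± 0.11 SE, adjusted p = 5.46e-05). Of 41 nuclear-encoded respiratory chain subunits 23 rose (median 0.24), Ndufa10 of complex I by 0.53. Of 40 mitochondrial ribosomal proteins 19 rose (median 0.25), and of 40 cytosolic ones 7 rose (median 0.15). No member of these 4 lists fell, and without the tissue libraries 2 cytosolic ribosomal genes rose; the cytosolic count was 3 without DEHP 1 or vehicle 3 and 4 without DEHP 6 or vehicle 1. When the trend of each library with transcript length was removed, the counts were 19 higher for the proteasome, 8 for the respiratory chain, 12 higher and 2 lower for mitochondrial ribosomes, and 3 higher and 4 lower for cytosolic ribosomes. Ctsd, a lysosomal protease, rose by 0.78 and was among 7 of 18 autophagy and lysosome genes that rose, with 2 that fell.

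Interferon-stimulated genes fell in part. Of 30 interferon-stimulated genes 9 fell and 0 rose (median -0.36), with low levels, as for Mx2 (0.86 to 1.63 FPKM with a median of 1.5 in DEHP livers, against 1.77 to 4.03 FPKM with a median of 3.12 in vehicle livers; log2 change -1.09 ± 0.24 SE, adjusted p = 0.00171) and Ifit1 (0.78 to 2.43 FPKM with a median of 1.71 in DEHP livers, against 2.37 to 4.58 FPKM with a median of 3.18 in vehicle livers, with overlap; log2 change -0.98 ± 0.26 SE, adjusted p = 0.00691); without the tissue libraries 4 fell, and the count was 4 without vehicle 2 and 5 without DEHP 6. In antigen presentation 2 of 21 genes rose, H2-Q10 (0.64), a secreted class I molecule of the liver, and Tapbp (0.41), and 2 fell, H2-Q7 (-0.92) and H2-Q4 (-0.37), which share sequence with each other; H2-Q4 lost its call without DEHP 1, 2, 3, 4, 5 or 6, or vehicle 2 or 3 (adjusted p up to 0.133). The antigen presentation counts lie below the shares over all genes tested, 14.4% higher and 11.6% lower. Of 15 Kupffer cell and macrophage markers edgeR and DESeq2 called 0, and 0 had an unadjusted p below 0.05. Of 15 sinusoidal endothelial markers 2 fell, Bmp2 (-0.54) and Ehd3 (-0.40), and without the tissue libraries none did; Bmp2 lost its call without DEHP 2, 3, 4, 5 or 6, or vehicle 1, 3, 4 or 5 (adjusted p up to 0.14), and Ehd3 lost its call without DEHP 2, 3, 4, 5 or 6, or vehicle 1, 3, 4 or 5 (adjusted p up to 0.178). Of 14 stellate cell and fibroblast markers 3 fell, Dcn (-0.50), Des (-3.56) and Hgf (-0.76), the second of which is also a muscle gene and changed by 0.25 without vehicle 1 (adjusted p = 0.89). Without the tissue libraries 2 of these markers were called higher and 3 lower, and the median of the list was 0.02, against -0.17 with all libraries. The 2 higher were the collagen genes Col1a1 (1.08) and Col3a1 (0.84), which with all libraries were not called (0.11 and 0.07) and were highest in vehicle 1. Col1a1 had 1.6 to 3.66 FPKM in DEHP livers, against 9.11 FPKM in vehicle 1 and 0.86 to 1.65 FPKM in the other vehicle livers.

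The strongest changes named by rule also included genes of other functions. Rad51b (chromosome 12, 79297282 to 79848260), a DNA recombination factor, had 4.59, 13.4 and 18.8 FPKM in DEHP livers, against 0.14, 0.15 and 1.46 FPKM in vehicle livers (log2 change 4.65 ± 0.42 SE, adjusted p = 9.21e-09). Slc39a5, a zinc transporter, had 6.94 to 19.9 FPKM with a median of 13.8 in DEHP livers, against 0.3 to 0.83 FPKM with a median of 0.48 in vehicle livers (log2 change 4.71 ± 0.34 SE, adjusted p = 1.31e-10). Chil1, a chitinase-like secreted protein, Ly6d, a surface protein known from B cells and epithelia, Krt23, an epithelial keratin, and Cox6b2, a respiratory subunit known from testis, all rose, the first 3 by 5.65, 5.31 and 4.20 on the log2 scale. Their DEHP livers ranged from 0.98 to 21.6 FPKM for Chil1, from 2.66 to 47.4 for Ly6d, from 0.93 to 13.2 for Krt23 and from 2.98 to 13.1 for Cox6b2. Their vehicle livers did not exceed 0.43 FPKM for Chil1, 1.26 for Ly6d, 0.86 for Krt23 and 0.85 for Cox6b2. Among the falls, Sdr9c7, a short-chain dehydrogenase, had 3.09, 4.98 and 8 FPKM in DEHP livers, against 25.3, 29.3 and 30.5 FPKM in vehicle livers (log2 change -2.54 ± 0.19 SE, adjusted p = 4.57e-10). Tff3, a trefoil peptide, Col27a1, a fibrillar collagen, and Noct, the deadenylase-like protein nocturnin, fell by 2.54, 1.91 and 1.69 on the log2 scale. For each of these genes the groups did not overlap, and each kept its call without the tissue libraries, as the rule requires. Slc39a5, Chil1, Krt23 and Cox6b2 stayed below 1 FPKM in every vehicle liver and averaged at most 0.433 FPKM after ethanol. They were tested only through libraries given DEHP, which favours rises.

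Set on a background of ethanol, DEHP could be compared again in libraries that share none with those above. DEHP plus ethanol against ethanol gave 1620 genes higher (15.1%) and 1356 lower (12.7%) of 10697. The genes higher in both numbered 841, which is 54.7% of those higher after DEHP alone and 51.9% of those higher on ethanol, and those lower in both numbered 425 (34.2% and 31.3%). Opposite calls were made for 30 genes higher and 38 lower after DEHP alone. Across the 10697 genes, which are not independent replicates, the changes had a Pearson r of 0.49 and a Spearman rho of 0.38. Of the 15 largest rises named by rule, 15 were called higher on ethanol too, and of the 15 largest falls 13 were called lower, with Gadd45g (0.37) and Pfkfb3 (-0.70) as the exceptions. Some of these rises passed the expression filter only through libraries given DEHP, with or without ethanol. Chil1, for example, had at most 0.43 FPKM in vehicle livers and a mean of 0.125 FPKM after ethanol. The count of rises called on ethanol therefore favours rises.

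The difference between the changes with and without ethanol was tested as an interaction in the same fit and passed for 686 genes (6.41%), and 2504 had an unadjusted p below 0.05. Without the tissue libraries it passed for 365. Among the 2778 genes called for DEHP alone it passed for 297 (10.7%). It was called for 1 of 17 peroxisomal and 1 of 19 mitochondrial beta-oxidation genes. Ehhadh changed by 4.65 on ethanol and 4.63 without it (adjusted p of the difference = 0.971). It was called for 10 of 16 clock genes, 9 of 21 endoplasmic reticulum chaperones and 8 of 16 heat shock genes. Cdkn1a averaged 23.1 ± 3.39 FPKM after DEHP plus ethanol and 1.5 ± 0.463 FPKM after ethanol (SD, n = 6 each), a log2 change of 3.85, against -0.80 for DEHP over vehicle (edgeR adjusted p of the difference = 1.36e-11). Lpin1 changed by 1.41 on ethanol and by -1.37 without it (adjusted p of the difference = 1.74e-06), and Cyp7a1 by -1.42 and 1.01 (adjusted p of the difference = 0.00459).

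**Figure D5:**
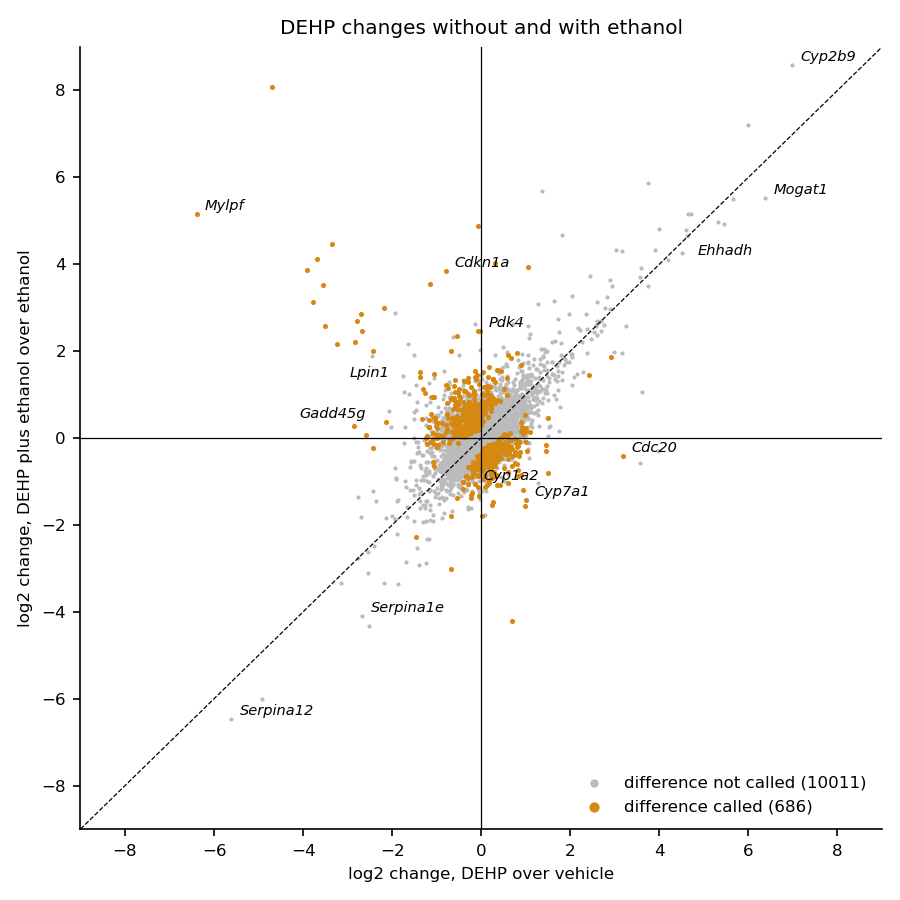
Log2 change of each of the 10697 genes tested for DEHP over vehicle (x axis) and for DEHP plus ethanol over ethanol (y axis), 1 point per gene, with the diagonal dashed. The 686 genes whose changes differ at an adjusted p below 0.05 are in orange; Cyp2b9, Mogat1, Ehhadh and Serpina12 lie near the diagonal among genes not called different, and Cdkn1a and Lpin1 lie off it.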

How the data were processed

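Liver RNA of 24 libraries in 4 groups of 6 was sequenced after TruSeq preparation from total RNA, per the labels' protocols. The deposited tables give an expected count and an FPKM for each gene of a library, per the file headers. Cuffdiff, without a version, and the builds mm10 and GRCm38 are listed in the submitters' processing notes. The aligner, the strand setting and the treatment of shared reads were not given in the sources used here. The deposited expected counts were whole for 94.5% to 95.3% of values and were rounded to whole numbers. Genes missing from a library were set to 0, and 7 listed genes had no symbol.

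Of 17537 genes, 10697 with an FPKM of at least 1 in at least 6 of 24 libraries were tested. Counts of all 24 libraries entered 1 fit with TMM factors and a coefficient per group (edgeR 4.0.16 quasi-likelihood test, R 4.3.3), with p-values adjusted by Benjamini-Hochberg over all genes tested. DESeq2 1.42.0 and limma 3.58.1, limma on log2(FPKM + 1) computed from the deposited FPKM values, were alternatives. The fits were tested on simulated data with known changes. Total counts of 7324793 to 7779687 limit the precision of low genes.

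The libraries, lists and genes were chosen with earlier results of these data known. The rule named the 15 largest rises and the 15 largest falls averaging 5 FPKM or more in DEHP or vehicle livers, with ranges that did not overlap and a call that held without the tissue libraries. It also named up to 4 called members of each of 61 lists by adjusted p, and a set of fixed genes. Some genes that it named are not reported here. Genes outside it, among them members that went against their list and all genes named as not called other than the fixed ones, were chosen after their values were seen. Promoter windows came from RefSeq (GRCm38.p6), and 10676 of the genes tested were matched there to an entry for coordinates.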

Additional observations from a re-analysis of the deposited data

Results flagged for a closer look

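Among the 454 groups of 6 libraries formed by the genes named above, 46 held a highest or lowest library whose gap to the next exceeded Dixon's 95% critical value, and chance alone flags about 1 in 20 groups. DEHP 1 was the highest of its group for Bmp2 at 3.64 FPKM, Ccnd1 at 9.69 FPKM, Cyp8b1 at 524 FPKM, Fitm1 at 107 FPKM, Gadd45g at 4.8 FPKM and Hmox1 at 13.9 FPKM. It was also the highest for Hp at 7982 FPKM, Mcm3 at 5.45 FPKM and Tff3 at 8.02 FPKM. DEHP 1 was the lowest of its group for Cat at 1166 FPKM, Cps1 at 458 FPKM, Cyp2a12 at 196 FPKM and Mx2 at 0.86 FPKM. DEHP 4 was the highest of its group for Slc25a25 at 27.2 FPKM and Them7 at 27.9 FPKM. DEHP 4 was the lowest of its group for Cbs at 167 FPKM and Cdkn1a at 20.7 FPKM. DEHP 5 was the highest of its group for Inhba at 1.92 FPKM, Serpina12 at 0.93 FPKM and Socs2 at 11.6 FPKM. DEHP 5 was the lowest of its group for Abcg5 at 28 FPKM and Cyp4a31 at 86.5 FPKM. DEHP 6 was the highest of its group for Cela2a at 81.2 FPKM and Cfd at 21.9 FPKM. Vehicle 1 was the highest of its group for Cd36 at 22 FPKM, Ces2c at 63.1 FPKM, Cfd at 18.5 FPKM, Col1a1 at 9.11 FPKM, Col3a1 at 24.1 FPKM and Des at 119 FPKM. It was also the highest for Fabp3 at 220 FPKM, Fabp4 at 43.9 FPKM, Mylpf at 518 FPKM, Pdk4 at 34.7 FPKM and Slc27a1 at 8.94 FPKM. Vehicle 1 was the lowest of its group for Rdh16 at 13.4 FPKM, Serpina1c at 6316 FPKM, Serpina1d at 2278 FPKM and Vnn3 at 21.4 FPKM. Vehicle 2 was the lowest of its group for Hgf at 1.17 FPKM and Slco1a1 at 57.5 FPKM. Vehicle 3 was the highest of its group for Hmgcs1 at 229 FPKM. Vehicle 3 was the lowest of its group for Nr1h4 at 34.4 FPKM and Psmb5 at 105 FPKM. Vehicle 5 was the highest of its group for Cyp2b9 at 2.57 FPKM. Vehicle 6 was the lowest of its group for Bbc3 at 2.5 FPKM.

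For 37 of the genes named, the DEHP change on ethanol differed from the DEHP change without it in the interaction term of the edgeR fit at an adjusted p below 0.05. Differences are given as the log2 change with ethanol minus that without. The change on ethanol was the higher for Cdkn1a by 4.65, Lpin1 by 2.78, Plin4 by 2.67, Gadd45g by 2.50, Pdk4 by 2.49, Angptl4 by 1.55 and G6pc by 1.47. Smaller positive differences were Hspa1b by 1.29, Dusp1 by 1.27, Bmp2 by 1.05, Hgf by 0.92, Herpud1 by 0.92, Tat by 0.92 and Plin2 by 0.84. Below these came Dcn by 0.76, Plin5 by 0.70 and Nr1i2 by 0.47. The change on ethanol was the lower for Cdc20 by -3.60, Cyp7a1 by -2.43, Nr1d1 by -2.30, Trib3 by -1.31, Pltp by -1.07, Cyp4a12b by -0.97 and Rhbg by -0.95. Smaller negative differences were Cyp1a2 by -0.92, Lipe by -0.80, Por by -0.68, Aqp11 by -0.56, Nr1h4 by -0.54, Pdk2 by -0.52 and Cyp4v3 by -0.52. Nearest to 0 were Dgat2 by -0.45, Aqp9 by -0.44 and Bckdha by -0.42. The muscle genes Des by 7.08, Fabp3 by 12.78 and Mylpf by 11.55 also differed, and 2 libraries with muscle markers entered the difference: combination 6, where they summed to 6134 FPKM, and vehicle 1, where they summed to 8353 FPKM. Without vehicle 1 the DEHP changes over vehicle were 0.25 for Des, 1.32 for Fabp3 and 0.06 for Mylpf. The differences of these genes without combination 6 are not reported here.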

How the results depend on the processing

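Of 196 genes called and named above, 177 kept their direction and call at the 0.05 threshold under every alternative run, and 178 with each of the 12 libraries left out in turn. The count for DEHP against vehicle ranged from 2179 to 2891 with 1 library left out, that for DEHP plus ethanol against ethanol from 2921 to 3103, and that of the difference from 459 to 835. An adjusted p below 0.01 left 1532 genes (956 higher and 576 lower) for DEHP against vehicle, 1881 (1052 higher and 829 lower) for DEHP plus ethanol against ethanol, 202 for the difference, 531 higher in both comparisons and 210 lower in both. Leaving out the tissue libraries together gave 365 for the difference. Of 3172 recomputed list counts, 2946 lay within 1.5 times the reported one. Pdk4 reversed to 1.32 without the tissue libraries and to 1.37 without vehicle 1. Fabp3 reversed to 1.04 and 1.32 in the same settings and to 0.33 with limma on log2(FPKM + 0.1), Cela2a to -0.12 without the tissue libraries, and Mylpf to 0.06 and Des to 0.25 without vehicle 1. With 1 library left out, Pdk4 ranged from -0.21 to 1.37, Fabp3 from -4.96 to 1.32, Mylpf from -6.65 to 0.06 and Des from -3.81 to 0.25. The labels do not say whether the replicate numbers pair the libraries. Deviations of same-numbered libraries correlated between -0.12 and 0.21, and 1 of 6 libraries correlated best with its own number. These deviations include the muscle RNA of vehicle 1 and the pancreatic RNA of DEHP 6, and do not decide whether the numbers pair the libraries. A fit with the replicate number as a block called 2656 genes for DEHP against vehicle. At this depth 10697 of 17537 listed genes reached the level tested, and changes of the others were not examined. The causes of the changes between settings were not tested.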
